A study of Homo sapiens with 6 samples.

Results

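The 9 genes examined here encode the machinery of translesion synthesis, REV1, POLH, POLK, POLI, REV3L, MAD2L2, POLQ, RAD18 and PRIMPOL. They were taken by gene symbol from a table of 18936 genes, by a rule that used no measured value. Earlier results of these data were known when the genes were chosen. All 9 were in the table and all 9 passed the filter on low counts, which left 15120 genes for testing. The series title and design text name T24, another bladder line of the study, while the sample titles and the cell line label name UC3, by which the samples were grouped here. RNA was sequenced from the human bladder carcinoma line UC3 (UM-UC-3), the parental line, and from its subline UC3DDP, which the study names UC3-R. UC3DDP was derived from UC3 by repeated exposure to rising doses of gemcitabine, a nucleoside analogue, and cisplatin, a DNA crosslinker, with drug-free recovery between exposures. There were 3 libraries of each line. Whether drug was present when RNA was taken is not stated. UC3DDP is a single resistant subline, and neither the labels nor the methods say whether it is a single clone. The methods state in general terms that experiments were repeated independently, but nothing says of these libraries that they came from separate cultures, so the p-values below measure only the spread between them, which may be technical.

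Translesion synthesis lets a cell copy past a damaged base, such as a platinum adduct, that stops the replicative polymerases. RAD18 attaches ubiquitin to the sliding clamp PCNA at a stalled fork, and Y-family polymerases with roomy active sites are then drawn to the clamp and insert a base opposite the lesion. Polymerase zeta, built on REV3L, extends from the inserted base, while PRIMPOL restarts synthesis beyond the lesion and POLQ joins broken ends through short homologies. The pathway is known for tolerance of cisplatin damage at the price of mutations, and the comparison of the lines asks how its transcripts differ between parental and resistant cells.

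Transcripts of 6 of the 9 genes fell in UC3DDP, those of REV3L, POLI, POLQ, POLK, RAD18 and PRIMPOL, and none rose by the same rule, an adjusted p under 0.05 with an absolute log2 fold change over 1. Of all 15120 genes, 23.1% were called lower and 17.6% higher by this rule. The largest fall was that of REV3L, to 13.9% of its UC3 level. In such bulk libraries, fewer cells that carry a transcript and less of it per cell cannot be told apart. With the adjusted p alone, REV1 was also lower and POLH and MAD2L2 were higher, so that 7 members fell and 2 rose, where 39.9% of all genes fell and 40.6% rose. The libraries of the lines did not overlap for 9 of 9 members, which was true of 83.7% of all genes. The median log2 fold change was -1.95 over the members and 0.02 over all genes tested.

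Base composition moved with the lines and bears on most of these genes. Genes with GC-rich transcripts were higher, and genes with GC-poor transcripts lower, in all UC3DDP libraries. The difference in log2 level between the fifth of genes highest and the fifth lowest in GC content, taken against the UC3 mean, lay between -0.02 and 0.02 in the UC3 libraries and was 2.44, 1.74 and 1.90 in UC3DDP replicates 1, 2 and 3. Of the 9 members, 8 had a transcript GC content below 47.6%, the median of 12176 protein-coding genes, and MAD2L2 was the exception. The fold changes of the members and the counts of called genes below are therefore given also after an adjustment for transcript GC content and length, which subtracted a smoothed trend from each library. Levels in CPM, shares and the order of levels are unadjusted. Whether the trend arose in the cells or in library preparation cannot be told apart, since it separates the lines. After the adjustment 4 members were called lower, REV3L, POLQ, RAD18 and POLI, against 15.5% of all genes, and POLH was called higher, against 12.5% of all genes. The median log2 fold change of the members was then -0.89, and that of all genes -0.08.

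The range of composition can be seen in the coding sequence itself. The following stretches of 90 bases lie at the centre of the longest coding exon of 4 members, on the coding strand in GRCh38 and GENCODE 44, with G and C in capitals. They were chosen to set the gene with the largest fall, another GC-poor polymerase, and the 2 genes that were higher in UC3DDP side by side.
REV3L, exon 13, chr6:111374631-111374720, minus strand: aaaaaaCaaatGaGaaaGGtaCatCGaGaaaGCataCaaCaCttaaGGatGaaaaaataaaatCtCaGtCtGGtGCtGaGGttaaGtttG
POLK, exon 13, chr5:75596655-75596744, plus strand: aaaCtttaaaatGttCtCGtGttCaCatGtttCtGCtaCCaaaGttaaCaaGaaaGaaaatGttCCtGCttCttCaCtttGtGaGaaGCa
POLH, exon 11, chr6:43614062-43614151, plus strand: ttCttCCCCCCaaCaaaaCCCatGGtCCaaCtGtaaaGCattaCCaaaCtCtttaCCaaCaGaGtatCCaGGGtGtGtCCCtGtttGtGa
MAD2L2, exon 3, chr1:11680367-11680456, minus strand: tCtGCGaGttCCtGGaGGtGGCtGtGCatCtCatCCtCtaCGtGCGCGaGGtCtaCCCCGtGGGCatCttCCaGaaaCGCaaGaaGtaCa
The GC content of these stretches was 33.3% in REV3L, 34.4% in POLK, 45.6% in POLH and 56.7% in MAD2L2. Stretches of the other members did not all follow the direction of change. Those of POLQ and REV1, both lower in UC3DDP, had 45.6%, the same as POLH. That of POLI had 42.2%, and that of RAD18, 32.2%, was below the printed ones. Over the whole coding sequence, G or C stood at 32.0% of the third codon positions of REV3L, 31.7% of those of POLK, 44.5% of those of POLH and 77.2% of those of MAD2L2. PRIMPOL had the lowest share among the members, 28.2%.

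The 4 Y-family polymerases moved apart. POLK and POLI fell, REV1 fell by less than the fold limit, and POLH was higher. POLH (ENSG00000170734, chr6:43576185-43620523, plus strand) encodes polymerase eta, which inserts bases opposite ultraviolet dimers and cisplatin crosslinks between adjacent guanines, and whose loss causes the variant form of xeroderma pigmentosum. Its level was 32.8, 34.7 and 33.2 CPM (counts scaled to a common library size) in UC3 replicates 1, 2 and 3, and 65.5, 65.6 and 62.7 CPM in UC3DDP. Each UC3DDP library stood above each UC3 library, and the libraries of each line lay close together. The mean was 33.6 ± 1.00 CPM in UC3 and 64.6 ± 1.62 CPM in UC3DDP (SD, n = 3). The log2 fold change was 0.95 (SE 0.069, edgeR adjusted p = 2.1e-06), just under the fold limit. Its transcript GC content, 46.2%, lay in the fifth decile of protein-coding genes, whose median log2 fold change was -0.0017. POLH was the member that stood above its decile median by the widest margin. After the adjustment for GC content and length it reached 1.14 on the log2 scale (edgeR adjusted p = 9.9e-08). With GC content alone, without length, it was 0.90 and not past the fold limit, so the call depended on the length part of the adjustment.

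POLK (ENSG00000122008, chr5:75511756-75601144, plus strand) encodes polymerase kappa, which bypasses bulky guanine adducts and can extend mispaired ends. It measured 70.6, 67.2 and 65.6 CPM in the UC3 libraries and 10.1, 18.7 and 17.8 CPM in the UC3DDP libraries. Every UC3DDP value was below every UC3 value, with replicate 1 the lowest. The means were 67.8 ± 2.52 and 15.6 ± 4.75 CPM (SD, n = 3), a log2 fold change of -2.12 (SE 0.19, edgeR adjusted p = 6.3e-06). With a transcript GC content of 38.2%, POLK lay in a decile with a median log2 fold change of -1.10. The adjustment left it at -0.89 (edgeR adjusted p = 3.7e-06), no longer past the fold limit.

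POLI (ENSG00000101751, chr18:54269517-54321266, plus strand) encodes polymerase iota, the least accurate of the family opposite template thymine. Its levels were 34.0, 35.0 and 34.7 CPM in UC3 and 4.51, 7.39 and 7.23 CPM in UC3DDP. The latter rested on 76, 127 and 122 reads, the fewest of any member. The log2 fold change was -2.44 (SE 0.15, edgeR adjusted p = 8.6e-07), and the lines were well apart. POLI had the lowest transcript GC content of the members, 36.2%, in a decile with a median log2 fold change of -1.43. After the adjustment it was -1.02 (edgeR adjusted p = 5.5e-07), so close to the fold limit that the form of the adjustment decided the call. It was -0.91 with a robust trend, -0.98 with the GC content of the canonical transcript and -0.97 with UC3DDP replicate 1 left out, none of which is past the limit.

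REV1 (ENSG00000135945, chr2:99400475-99490035, minus strand) encodes a deoxycytidyl transferase that also serves as the platform on which the other inserters and polymerase zeta meet. Its values were 52.0, 48.7 and 51.2 CPM in UC3 and 21.9, 34.8 and 29.4 CPM in UC3DDP. The lines did not overlap, but the UC3DDP libraries spread widely, with replicate 1 the lowest. On the log2 scale the lines differed by -0.82 (SE 0.14, edgeR adjusted p = 0.00055), and by -0.36 after the adjustment (edgeR adjusted p = 0.0016), so REV1 fell by less than the fold limit in both. Exons of EIF5B, on the opposite strand, share 852 bases with those of REV1. EIF5B was counted far more deeply, 4769 reads per library on average, and had a log2 fold change of -2.78. The sources used here do not say if the counter took strand into account, and without it reads from 2 such overlapping genes cannot be told apart. The same holds for 261 exon bases that POLH shares with GTPBP2, which had a log2 fold change of 1.01, and for 144 that POLK shares with CERT1.

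**Figure D1:**
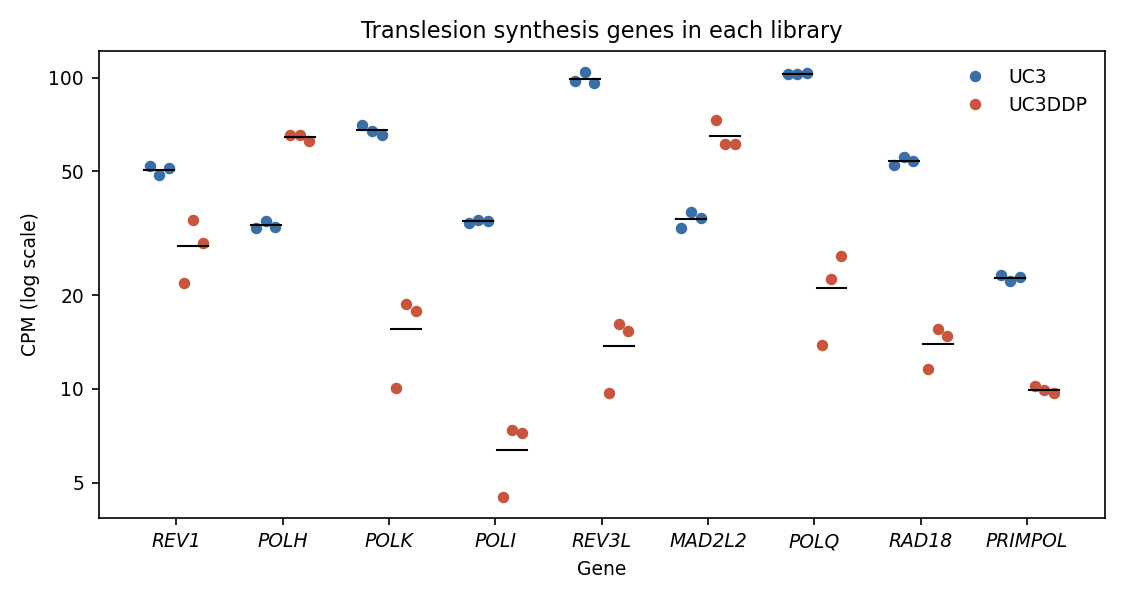
Level of each of the 9 genes in each library, in CPM on a log axis, with 3 UC3 libraries in blue, 3 UC3DDP libraries in red and a bar at the mean. The UC3DDP points lie below the UC3 points for every gene except POLH and MAD2L2, and the lowest UC3DDP point of POLK, POLI, REV1, REV3L, POLQ and RAD18 is replicate 1.

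The balance among Y-family transcripts differed between the lines. Divided by exon length, POLH made up 12.1%, 13.1% and 12.5% of the summed level of the 4 genes in the UC3 libraries and 52.5%, 40.0% and 41.8% in the UC3DDP libraries. POLK went from a mean of 35.9% to 14.8% and POLI from 18.0% to 6.00%, while REV1 had 33.5% in UC3 and 34.4% in UC3DDP. The summed level fell from 31.9 ± 0.504 to 17.5 ± 2.37 CPM per kb (SD, n = 3), so the larger share of POLH came with a smaller total. The exon length in the table equalled the canonical transcript for 8 of 9 members, and POLK was listed with 5911 bases against 14623 in GENCODE 44. With the longer length POLK held 18.5% of the sum in UC3 and 6.59% in UC3DDP, POLH 15.99% and 49.03%, and REV1 42.65% and 37.79%, so the direction of REV1's share depended on that length. These shares are descriptions of the same values and carry no test.

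**Figure D2:**
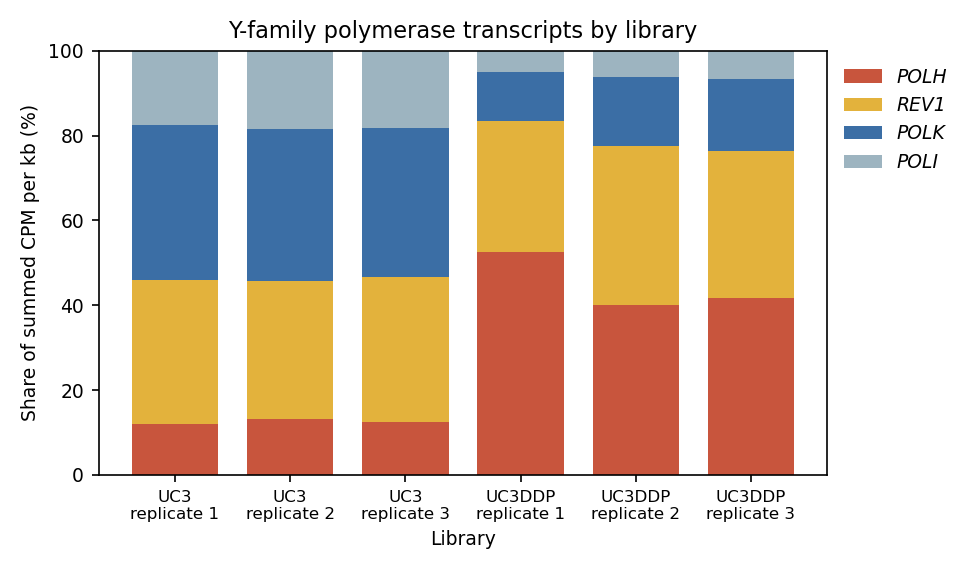
Share of each Y-family gene in the summed CPM per kb of exon of the 4 genes, in percent and unadjusted, 1 bar per library. POLH holds 12.1% to 13.1% in the UC3 libraries and 40.0% to 52.5% in the UC3DDP libraries.

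Polymerase zeta was represented by its catalytic subunit and its accessory subunit, which moved in opposite directions. REV3L (ENSG00000009413, chr6:111299028-111483715, minus strand) encodes the catalytic subunit, which extends from bases inserted opposite lesions. Its level was 97.3, 104.3 and 96.5 CPM in UC3 and 9.74, 16.2 and 15.4 CPM in UC3DDP. These were 1962, 2017 and 2008 reads against 164, 278 and 259 reads. The fall was 7.22-fold, far wider than the spread in either line, with a log2 fold change of -2.85 (SE 0.16, edgeR adjusted p = 6.1e-07). After the adjustment it was -1.62 (edgeR adjusted p = 1.3e-08), or 32.5% of the UC3 level, and it stayed the largest fall of the 9. REV3L was past the fold limit in all 6 forms of the adjustment that were tried, between -1.95 and -1.51.

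MAD2L2 (ENSG00000116670, chr1:11674480-11691650, minus strand) encodes REV7, the small adaptor that bridges REV3L and REV1 and that also belongs to the shieldin complex at broken ends. It measured 33.0, 36.9 and 35.6 CPM in UC3 and 73.1, 61.2 and 61.2 CPM in UC3DDP. All UC3DDP values were higher, replicate 1 the highest. UC3DDP was higher by 0.89 on the log2 scale (SE 0.094, edgeR adjusted p = 1.9e-05), below the fold limit. The transcript GC content was 58.9%, in a decile whose median log2 fold change was 0.73. After the adjustment MAD2L2 had a log2 fold change of 0.02 (edgeR adjusted p = 0.73). With GC content alone, without length, it was 0.16 (edgeR adjusted p = 0.039).

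The ratio of REV3L to MAD2L2, each per kb of exon, put both subunits into 1 value per library. On the log2 scale it was -1.79, -1.85 and -1.91 in UC3 and -6.25, -5.26 and -5.34 in UC3DDP. The lines differed by -3.77, and the UC3DDP libraries all lay below the UC3 libraries. An exact two-sided permutation test gave p = 0.1, the smallest value that 3 against 3 libraries allow. The adjusted log2 fold changes of the 2 genes differ by -1.64, so the size of the difference depends on the adjustment. Polymerase zeta shares its other subunits with polymerase delta. POLD2 went from 107.6 to 186.7 CPM, a log2 fold change of 0.79 (edgeR adjusted p = 1.9e-05). POLD3 went from 103.0 to 70.3 CPM, a log2 fold change of -0.55 (edgeR adjusted p = 0.00077). Neither passed the fold limit, and after the adjustment their log2 fold changes were -0.08 and -0.05.

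RAD18 (ENSG00000070950, chr3:8775402-8963773, minus strand) encodes the ubiquitin ligase that marks PCNA for translesion synthesis. It gave 52.6, 55.6 and 54.2 CPM in UC3 and 11.6, 15.5 and 14.8 CPM in UC3DDP. The groups were far apart, with means of 54.12 ± 1.495 and 13.97 ± 2.105 CPM (SD, n = 3). The log2 fold change was -1.95 (SE 0.11, edgeR adjusted p = 5.6e-07) and -1.15 after the adjustment (edgeR adjusted p = 3.3e-08), past the fold limit in both. POLQ (ENSG00000051341, chr3:121431431-121545988, minus strand) encodes polymerase theta, a helicase and polymerase that joins ends through short homologies and can also copy past lesions. It measured 102.9, 102.5 and 103.4 CPM in UC3, nearly equal in the 3 libraries, and 13.9, 22.6 and 26.7 CPM in UC3DDP. The log2 fold change was -2.29 (SE 0.19, edgeR adjusted p = 4.5e-06) and -1.29 after the adjustment (edgeR adjusted p = 1.0e-06).

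PRIMPOL (ENSG00000164306, chr4:184649667-184694963, plus strand) encodes a primase and polymerase that restarts synthesis beyond a lesion and leaves a gap behind it. It measured 23.2, 22.3 and 22.9 CPM in UC3 and 10.2, 9.95 and 9.72 CPM in UC3DDP. The values within each line were close together, those of UC3DDP included. The log2 fold change of -1.19 (SE 0.077, edgeR adjusted p = 1.2e-06) was near the median of its GC decile, -1.10, and after the adjustment it was -0.24 (edgeR adjusted p = 0.044). Exons of CENPU, on the opposite strand, share 520 bases with those of PRIMPOL, whose exon length was 2164 bases. CENPU had a log2 fold change of -1.70 and 1143 reads per library on average. PRIMPOL had 467, 431 and 477 reads in UC3 and 172, 171 and 164 in UC3DDP. As for REV1, reads from the 2 genes cannot be told apart if strand was not taken into account.

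**Figure D3:**
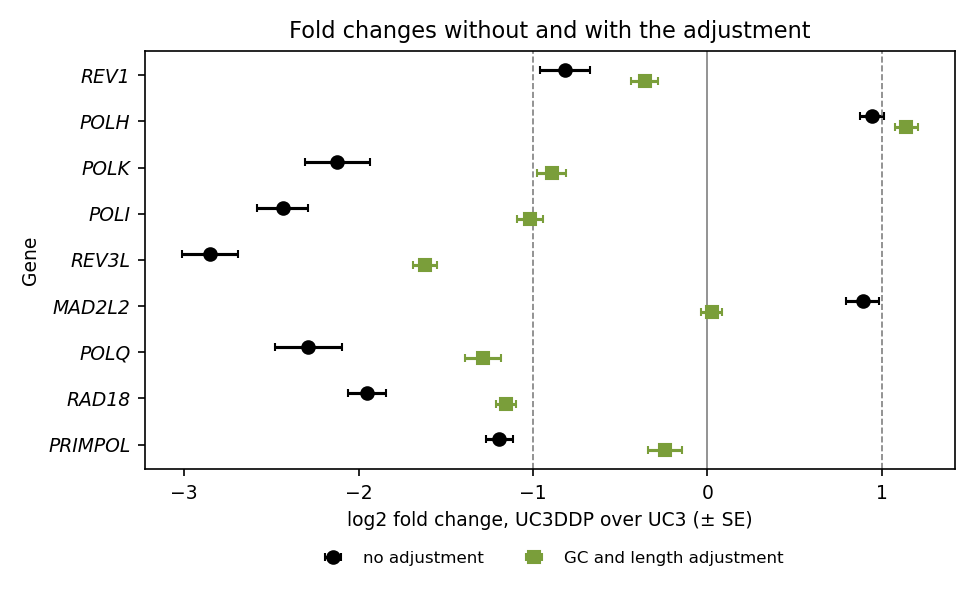
Log2 fold change of each gene, UC3DDP over UC3, with its SE, without adjustment (circles) and with the adjustment for GC content and length (squares), and dashed lines at the fold limit. The adjustment moves the GC-poor genes towards 0 and MAD2L2 to 0.02, while POLH moves from 0.95 to 1.14 and REV3L stays the lowest at -1.62.

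**Figure D4:**
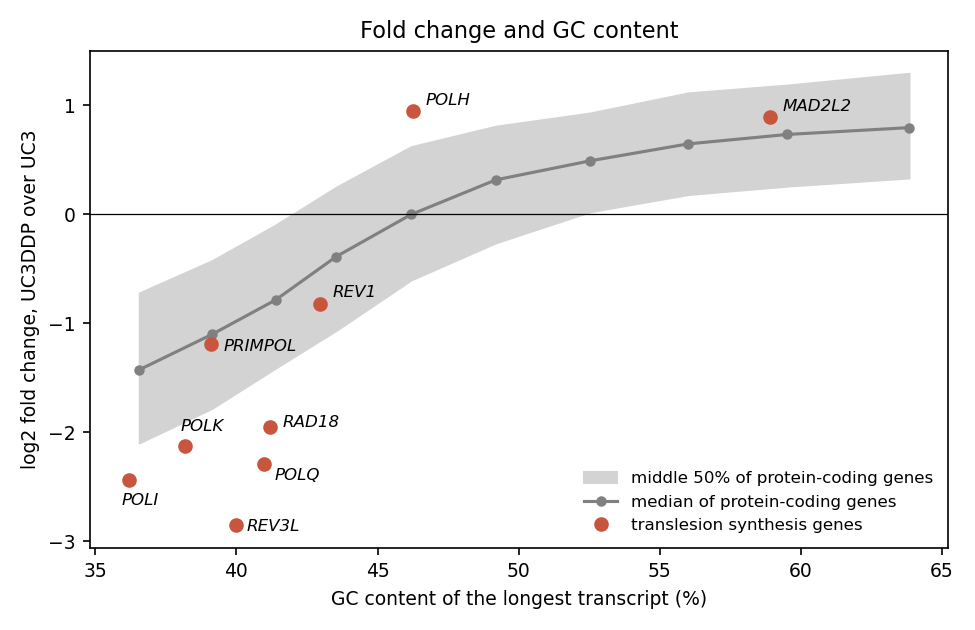
Log2 fold change against the GC content of the longest transcript for the 9 genes (red), with the median and the middle 50% of tested protein-coding genes by decile of GC content (grey). REV3L, POLQ, RAD18, POLK and POLI lie below the grey band, POLH lies above it, and REV1, PRIMPOL and MAD2L2 lie within it.

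The order of the 9 transcripts also differed between the lines. Per kb of exon, MAD2L2 was highest in both, at 33.4 ± 1.89 CPM per kb in UC3 and 61.9 ± 6.52 in UC3DDP (SD, n = 3). In UC3 it was followed by POLQ (11.8 CPM per kb), POLK (11.5), REV1 (10.7), PRIMPOL (10.5), REV3L (9.28), RAD18 (9.24), POLI (5.74) and POLH (4.01). The library ranges of POLQ and POLK overlapped, as did those of REV1 and PRIMPOL and those of REV3L and RAD18. In UC3DDP, POLH stood next to MAD2L2 at 7.72 CPM per kb, ahead of REV1 (6.07) and PRIMPOL (4.60), whose ranges overlapped. POLK (2.63), POLQ (2.41) and RAD18 (2.39) could not be ordered beyond their spread, and neither could REV3L (1.28) and POLI (1.06) below them. With the longer annotated transcript, POLK would stand at 4.63 CPM per kb in UC3 and 1.06 in UC3DDP. In these unadjusted levels POLH went from the lowest of the 9 to the next to highest. After the adjustment POLH stood at 220.5% of its UC3 level, PRIMPOL at 84.5% and REV1 at 77.9%. No order of adjusted levels was made, so the place of POLH above REV1 and PRIMPOL may depend on the adjustment.

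The genes around each member give its chromosomal setting, taken as the 10 tested protein-coding genes nearest on each side. For comparison, 23.1% of all genes tested were called lower and 17.6% higher, and after the adjustment 15.5% and 12.5%. PRIMPOL lay among genes that were also lower. Of its 20 neighbours, which span 3.33 Mb, 15 were called lower and none higher, with a median log2 fold change of -1.40 (-0.70 after the adjustment). PRIMPOL itself fell less than 12 of them, and after the adjustment less than 18. POLH lay among genes that were higher by a similar amount, with 5 of 20 called higher, none lower and a median of 0.91. After the adjustment no neighbour of POLH was called, their median was 0.17, and POLH stood above all 20. REV3L fell further than each of its 20 neighbours, of which 4 were called lower and 6 higher, with a median of 0.22. After the adjustment REV3L was still below all 20, of which none was called lower and 9 higher. POLK was below each of its 20 neighbours with and without the adjustment. POLQ was below each of its neighbours before the adjustment, and above 2 of them after it. Of the neighbours of POLI, 1 was below the member before the adjustment and 3 after it, and of those of RAD18, 3 in both. REV1 and MAD2L2 lay inside the range of theirs. DNA copy number was not measured in these libraries.

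**Figure D5:**
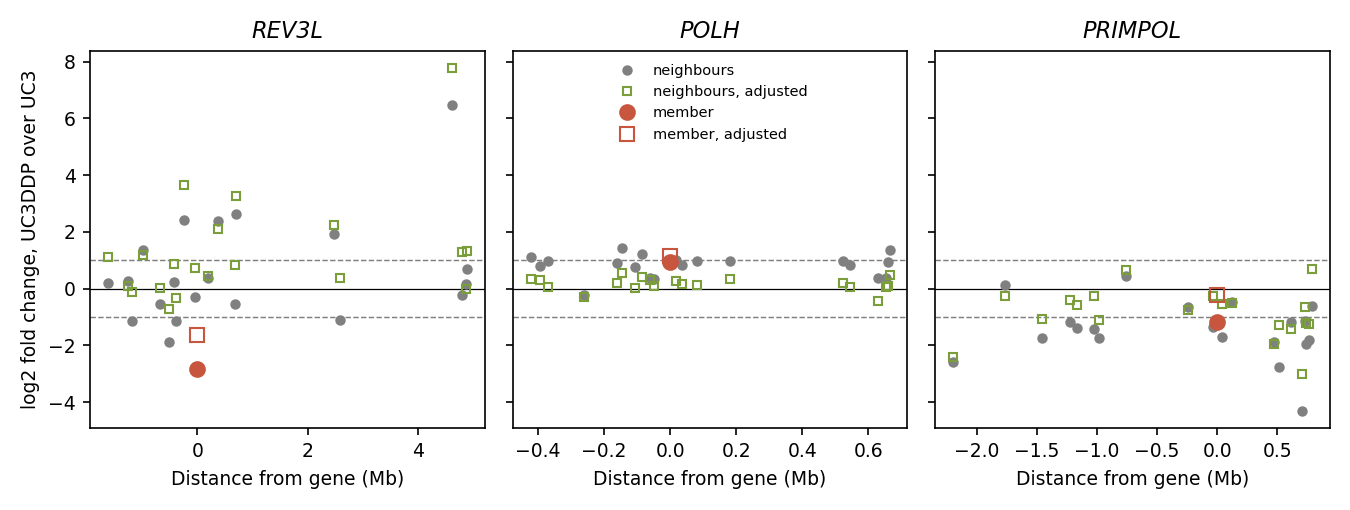
Log2 fold change, UC3DDP over UC3, of REV3L, POLH and PRIMPOL (red) and of the 20 nearest tested protein-coding genes by distance in Mb (grey), with the adjusted values as open squares and dashed lines at the fold limit. REV3L lies below all its neighbours, POLH lies within its neighbours before the adjustment and above them after it, and 15 of the 20 neighbours of PRIMPOL are called lower.

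Promoter sequence was read from RefSeq (GRCh38.p14), 250 bases before to 50 after each annotated start. All 9 members matched, with 11 promoters, since REV3L and MAD2L2 have 2 each. Their GC content ranged from 50.3% to 80.7%, against a median of 58.7% over 35116 promoters, so the members with GC-poor transcripts mostly started in GC-rich sequence. The GC box letters GGGCGG, searched on both strands, stood in 10 of the 11 promoters, all but that of POLI, and in 45.0% of all promoters. The 3 promoters printed here are those of POLQ and RAD18, which were lower with and without the adjustment, and of POLH, which was higher. Capitals mark matches, on either strand, to the GC box and to the cell cycle homology region TTTGAA.
POLQ, chr3:121545939-121546238, minus strand: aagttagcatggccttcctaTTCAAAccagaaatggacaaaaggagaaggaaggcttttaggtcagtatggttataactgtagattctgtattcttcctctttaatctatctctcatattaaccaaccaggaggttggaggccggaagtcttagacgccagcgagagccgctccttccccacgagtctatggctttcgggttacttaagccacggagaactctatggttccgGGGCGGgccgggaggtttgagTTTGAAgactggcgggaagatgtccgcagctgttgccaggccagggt
RAD18, chr3:8963423-8963722, minus strand: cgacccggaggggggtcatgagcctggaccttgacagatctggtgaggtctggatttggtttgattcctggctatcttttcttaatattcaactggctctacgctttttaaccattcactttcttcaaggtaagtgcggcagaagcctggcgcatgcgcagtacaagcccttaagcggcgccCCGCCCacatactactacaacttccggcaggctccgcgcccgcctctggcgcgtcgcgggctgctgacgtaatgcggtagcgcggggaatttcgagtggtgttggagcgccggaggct
POLH, chr6:43575935-43576234, plus strand: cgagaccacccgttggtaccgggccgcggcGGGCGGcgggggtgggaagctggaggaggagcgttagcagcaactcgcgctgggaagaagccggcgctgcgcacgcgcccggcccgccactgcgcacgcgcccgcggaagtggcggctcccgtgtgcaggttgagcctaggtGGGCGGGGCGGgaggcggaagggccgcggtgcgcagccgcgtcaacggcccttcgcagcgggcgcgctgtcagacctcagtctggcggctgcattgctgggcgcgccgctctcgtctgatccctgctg
POLQ had the promoter lowest in GC and held TTTGAA at 2 positions, -230 and 3 from the start, a string present in 15.2% of all promoters. PRIMPOL held it as well, at -12. RAD18 held GGGCGG once, at -68. POLH held GGGCGG at 3 positions, 2 of them overlapping. E2F letters (TTTCCCGC, TTTCGCGC, TTTGCCGC or TTTGGCGC), present in 3.31% of all promoters, stood in the promoter of POLI at -213 and in 1 of the 2 of REV3L at -88. The letters CCAAT stood in 1 of the 2 promoters of MAD2L2 and in 34.6% of all promoters, and TGACGTCA in none of the 11 and in 1.85% of all. A match of letters is a description and not a bound site.

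Other genes of the pathway were taken from lists of PCNA modification, fork remodelling, replicative and other DNA polymerases, end joining and shieldin. Of 70 tested, 25 were lower (35.7%) and 3 higher (4.29%), beside 23.1% and 17.6% of all genes. After the adjustment 16 were lower, all of them among the 25, or 22.9% beside 15.5% of all genes, and 1 was higher. The median log2 fold change of the 70 was -0.29 before the adjustment and -0.21 after it.

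Among 11 tested genes of PCNA ubiquitination, RAD18 included, 5 were called lower and none higher, and after the adjustment 3 lower and 1 higher. PCNA, the clamp itself, went from 350.6 ± 10.6 to 167.4 ± 4.09 CPM (SD, n = 3), with a log2 fold change of -1.07 that was nearly the same after the adjustment, -1.12 (edgeR adjusted p = 8.8e-07 and 1.1e-08). SHPRH, a ligase that extends ubiquitin chains on PCNA, fell from 65.8 to 10.1 CPM, a log2 fold change of -2.702 (-1.497 after the adjustment). HLTF, a related ligase that also remodels forks, had a log2 fold change of -1.04 before and 0.30 after the adjustment, so its direction depended on it. UBE2V2, a partner of the conjugating enzyme UBE2N in chain extension, had -1.82 before and -0.31 after. The direction also turned for the conjugating enzymes that work with RAD18. UBE2A had a log2 fold change of -0.22 before and 1.14 after the adjustment, the 1 gene of the 70 called higher there. UBE2B had -0.34 before and 0.92 after.

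Among 9 genes of PCNA deubiquitination and unloading, 4 were called lower and none higher, and after the adjustment 2 and none. USP1, the protease that takes ubiquitin off PCNA, went from 208.8 to 68.9 CPM, a log2 fold change of -1.60 that was -0.49 after the adjustment. Its cofactor WDR48 had -1.63 and -0.57. ATAD5, which unloads PCNA from DNA, fell from 60.9 to 10.2 CPM, a log2 fold change of -2.58 (-1.19 after the adjustment). USP7, another PCNA deubiquitinase, had -1.19 and -1.40. Of 12 genes of fork remodelling and repriming, PRIMPOL and HLTF included, 5 were called lower and none higher, and after the adjustment 2 and none. TIPIN and CLSPN, which protect stalled forks and relay the checkpoint signal, had log2 fold changes of -1.99 and -1.56 and were still called after the adjustment, at -1.33 and -1.05. ZRANB3, a fork-reversing enzyme that binds ubiquitinated PCNA, had -1.58 and was not called after it, at -0.73.

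Of 17 tested genes of the replicative polymerases and the clamp loader, 5 were called lower and 1 higher, and after the adjustment 4 and none. POLA1, the catalytic subunit of polymerase alpha, went from 111.6 to 24.2 CPM (log2 fold change -2.20), and POLE2, a subunit of polymerase epsilon, from 48.0 to 10.5 CPM (-2.19). RFC1, the large subunit of the clamp loader, had -1.70 and PRIM1, the replicative primase, -1.52. These 4 were also called lower after the adjustment, at -1.40, -2.01, -1.05 and -1.32. POLE4 rose, with 1.09, but was not called after it, at 0.78. Of 6 tested genes of the other DNA polymerases none was called lower and 1 higher, and after the adjustment none in either direction. POLM, an end-joining polymerase, rose from 5.78 to 17.9 CPM, a log2 fold change of 1.63 that was 0.77 after the adjustment. POLB, the base excision repair polymerase, had -0.34 and 0.05.

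Partners of POLQ in end joining were lower in part. Of 11 tested genes, POLQ included, 5 were called lower and 1 higher, and after the adjustment 4 and none. The 3 genes of the MRE11 complex, which resects broken ends, all fell. RAD50 went from 8.39 to 0.784 CPM (log2 fold change -3.40, and -2.46 after the adjustment), NBN had -2.72 and -1.32, and MRE11 had -2.35 and -1.08. The size of the RAD50 change rests on few reads, with 0.653, 0.989 and 0.711 CPM in UC3DDP replicates 1, 2 and 3. XRCC1, a scaffold of single-strand break repair, rose with 1.62, and was not called after the adjustment at 0.78. Of 9 genes of shieldin and its recruiters, MAD2L2 included, 5 were called lower and none higher, and after the adjustment 3 and none. RIF1 went from 308.2 to 36.3 CPM (log2 fold change -3.09, and -1.41 after the adjustment), and SHLD2 from 93.6 to 16.5 CPM (-2.51 and -1.33). TP53BP1, which recruits RIF1, had -1.37 and -1.02. SHLD3, which links MAD2L2 to the complex, had -1.43 before the adjustment and -0.06 after it. Its level was low, 2.87 CPM in UC3 and 1.06 CPM in UC3DDP.

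Proliferation genes and depth moved with the lines in part, and their share in the results above was not tested. Of 18 genes of S phase, 2 were called lower and none higher, with a median log2 fold change of 0.37. After the adjustment 3 were called lower, none of them among the former 2, and the median was -0.02. Of 16 genes of G2 and mitosis, 6 were called lower and 1 higher, with a median of -0.65, and after the adjustment 3 and 1, with a median of -0.44. Total counts were 19467228 to 20803970 in UC3 and 16757610 to 17254683 in UC3DDP. UC3DDP replicate 1 stood apart. Its counts differed from those of the other libraries of its line by chi-square values of 23.7 and 14 for each degree of freedom, while the other two gave 3.63 between themselves and the UC3 pairs 1.48 to 1.88. Without it the log2 fold changes of the members were -2.65 for REV3L, -2.24 for POLI, -2.06 for POLQ, -1.89 for POLK, -1.83 for RAD18, -1.21 for PRIMPOL, -0.66 for REV1, 0.80 for MAD2L2 and 0.94 for POLH, and 6 members were again called lower. Of 13 urothelial markers 8 were in the table, and UPK1B, UPK3A, UPK3B, KRT5 and KRT20 were absent from it. Their summed level was 17.2 to 18.7 CPM in UC3 and 22.3 to 35.3 in UC3DDP, Fibroblast markers, of which 7 of 8 were in the table, summed to 5.86 to 6.45 and 16.2 to 29.7 CPM. Endothelial markers, with 5 of 5, summed to 0.384 to 0.794 and 2.37 to 8.43 CPM. The upper end of these ranges in UC3DDP came from replicate 1, without which the summed levels were 22.3 and 24.8 CPM for urothelial, 16.2 and 18.0 CPM for fibroblast and 2.37 and 2.62 CPM for endothelial markers. Of those tested, 1 of 4 urothelial, 4 of 4 fibroblast and 1 of 1 endothelial markers were called higher and none lower, beside 17.6% of all genes called higher. After the adjustment 2, 2 and 1 were called higher, beside 12.5% of all genes. CDH1, a urothelial marker, was at 9.44 CPM in replicate 1 and at 0 in the other 5 libraries. Of 7 leukocyte markers 1 was in the table, at most 0.475 CPM, and of 6 retinal markers 1, at most 0.640 CPM. Keratins of simple epithelium summed to 206.1 to 213.9 CPM in UC3 and 326.1 to 409.7 CPM in UC3DDP. Of 3 tested, 1 was called higher, and 0 after the adjustment.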

How the data were processed

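Sequencing libraries were grouped by the line in their titles. The labels also mention T24, retinas and a mouse genome build. The gene identifiers are human, 99.8% of them found in GENCODE 44, which does not tell T24 from UC3, and the line was taken from the sample titles. Per the study's methods, Fastp served for trimming, HISAT2 for alignment to GRCh38 and featureCounts for counting by gene. The authors deposited unnormalized whole-number counts for 18936 genes, each with at least 10 counts over the 6 libraries. The same deposited table holds the exon length and the authors' log2 fold change, linear fold ratio, p-value and false discovery rate, which were not used here.

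Counts were tested in edgeR 4.0.16 (R 4.3.3) by its quasi-likelihood method (TMM scaling, factors 0.977 to 1.02, filterByExpr with a minimum count of 10, Benjamini-Hochberg adjustment over 15120 genes, thresholds 0.05 and 1 as in the study). No covariate was used. SE was the log2 fold change over the square root of the F statistic. CPM used TMM-scaled totals. For the adjustment, the log2 CPM difference of each library from the UC3 mean (prior count 2) was smoothed by loess (span 0.3) on the GC content of the longest GENCODE transcript and then on log10 exon length, and the trend entered edgeR as an offset. The REV3L to MAD2L2 ratio used a prior count of 0.5. The code of the fits was run on simulated counts with a single dispersion for all genes. Where a GC trend was built in, it was the same in all simulated UC3DDP libraries, unlike in the real ones. This was a check of the code and not of the results. Alternatives were DESeq2 1.42.0, limma 3.58.1 (voom), other scalings, no filter, no fold limit, a replicate block, leaving out each library, and forms of the adjustment. The members and lists were chosen with earlier results of these data known. All 9 members, the called genes of each list with the largest changes, and a few named clamp and polymerase genes were reported.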

Additional observations from a re-analysis of the deposited data

How the results depend on the processing

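Without any adjustment for GC content, all 9 members kept their direction and their side of the threshold under other scalings, no filter, DESeq2, limma voom, the replicate block and the omission of each library. The number of members called lower was 6 in each of these and with each library left out. With the adjustment it was 4, and 3 with a robust trend, with the canonical transcript or with UC3DDP replicate 1 left out, where POLI missed the limit. The forms without length and with a robust trend or the canonical transcript were chosen after seeing the data. POLH made 1 member called higher, in place of 0, under the adjustment, with the replicate block added, with the robust trend, with the canonical transcript and with UC3DDP replicate 1 left out, and 0 without length, at 0.90. With no fold limit 2 were higher. PRIMPOL lay between -0.38 and -0.14 over the forms of the adjustment.

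Pathway genes called lower numbered 25, and 16 with the adjustment, with the replicate block added or without length, 13 with the canonical transcript, 12 with the robust trend or with UC3DDP replicate 1 left out, and 38 with no fold limit. Those called higher numbered 3, and 21 with no fold limit. Under the adjustment they numbered 1, also with the replicate block added, and 2 with the robust trend or without length. They numbered 0 under the adjustment with the canonical transcript or with UC3DDP replicate 1 left out. Of all genes, 3495 were lower and 2666 higher, against 2085 lower with the robust trend, 2303 lower without length, and 6038 lower and 6134 higher with no fold limit. The cause of these differences was not tested.

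Same-numbered libraries showed no sign of deviating together (correlations -0.047, -0.014 and -0.009). Libraries with different numbers gave -0.028 to 0.042. The UC3 libraries differed so little (chi-square 1.48 to 1.88 for each degree of freedom) that such correlations cannot exclude pairing. The replicate block without adjustment gave 6 members lower and 0 higher, with 3514 genes lower and 2660 higher in all. The log2 ratio of REV3L to MAD2L2 differed by -3.95 to -3.46 with each library left out. Scaling and exon length cancel in it. With the GC and length adjustment, added after seeing the data, the difference was -1.64, with no test. In the ratio, with 2 against 3 libraries the exact permutation test cannot give a p below 0.2. Among the members, depth limits POLI most, at 76 reads in UC3DDP replicate 1. RAD50 and SHLD3 of the pathway lists were lower still, at means of 0.784 and 1.06 CPM in UC3DDP, beside 6.38 CPM for POLI.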
